A study of Mus musculus with 12 samples.

Results

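N-acetylaspartate is made in neurons, released, and broken down in oligodendrocytes, the glial cells that form myelin, where the freed acetate can enter lipid synthesis. Nat8l encodes the neuronal enzyme that joins acetyl-CoA to aspartate. Slc13a3 encodes the sodium-coupled dicarboxylate carrier NaDC3, which takes up N-acetylaspartate. Aspa encodes aspartoacylase, the enzyme of oligodendrocytes that cleaves it into acetate and aspartate, and loss of the human gene causes Canavan disease, a disorder of white matter. Folh1 encodes glutamate carboxypeptidase II, which releases N-acetylaspartate from the dipeptide N-acetylaspartylglutamate outside the cell. These 4 genes were chosen by their role in this cycle, and all 4 were among the 15584 genes of the deposited table. Their choice was not blind to the values, because the fall of Aspa from WT control to WT cuprizone tissue was known. The comparison of WT cuprizone with WT control is therefore given for these 4 genes as a description, with no test.

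RNA of mouse corpus callosum, the main tract of myelinated axons between the hemispheres, was sequenced in 12 libraries, 3 for each of 4 groups. The groups were AHR CKO cuprizone (microglia without the aryl hydrocarbon receptor, cuprizone model), AHR CKO control, WT cuprizone and WT control. Cuprizone is a copper chelator whose feeding kills oligodendrocytes. The sources used here do not give the Cre driver, the dose and length of feeding, or the age and sex of the mice. They do not say either that each library came from its own animal, so the spread behind each p-value may be partly technical. Values are FPKM, fragment counts scaled by the length of the transcript and the size of the library. In bulk tissue fewer cells of a type and less RNA per cell cannot be told apart.

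The FPKM totals per library ran from 458842 to 519470 in AHR CKO and from 447156 to 472073 in WT. Of the 15584 genes, 52 to 80 were at 0 FPKM in each AHR CKO library. The WT libraries had 0 such genes, except WT cuprizone replicate 2 with 94. The source of this difference between genotypes, and its part in the comparisons below, was not tested. The smallest steps between low values gave a rough depth of 12900000 to 14900000 fragments in AHR CKO libraries and 11400000 to 13000000 in WT libraries. At that depth Aspa rested on about 252 to 3460 fragments per library, Nat8l on 3790 to 5290, Slc13a3 on 174 to 308 and Folh1 on 71 to 193. Ahr itself was listed at 1.41 to 2.57 FPKM in the 6 AHR CKO libraries and at 1.48 to 2.21 FPKM in the 6 WT libraries. Whole tissue holds Ahr from other cells, so this does not check the labels. The microglial gene Cx3cr1 stood at 1.16, 22.7 and 29.6 FPKM in the AHR CKO cuprizone libraries and at 1.05, 9.60 and 0.801 in the AHR CKO control libraries, against 49.4 to 69.4 in WT cuprizone and 22.6 to 24.9 in WT control. Its part in the results below was not tested. Microglia markers summed to 823 to 1316 FPKM in AHR CKO cuprizone, 299 to 313 in AHR CKO control, 1186 to 1716 in WT cuprizone and 320 to 359 in WT control. Of these 8 markers 5 rose and 0 fell with cuprizone in each genotype. At an unadjusted p under 0.05, 1 of the 8 was lower in AHR CKO and 0 in WT. Of all tested genes 7.22% rose and 2.98% fell in AHR CKO, and 9.08% rose and 7.81% fell in WT. Of 5 oligodendrocyte precursor and 5 endothelial markers limma called 0 with cuprizone in either genotype, with 1 of each list at an unadjusted p under 0.05 in WT and 0 in AHR CKO. The libraries carried oligodendrocyte markers, and also markers of neurons and of neighbouring tissue: 10 neuron markers summed to 1921 to 3093 FPKM over all libraries, with the cortical neuron gene Slc17a7 at 279 to 589, striatal neuron markers to 326 to 1948 and choroid plexus markers to 42.9 to 3730. The label corpus callosum is therefore used as the submitters' name for the dissected tissue.

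Aspa lies on chromosome 11 at 73304992 to 73329596 on the minus strand (GRCm38, GENCODE M21). Its promoter is shown because Aspa carries most of the differences described here. The 250 bases before the RefSeq start of Aspa, chr11:73324638-73324887 on the minus strand of GRCm38.p6, read 5′ to 3′ as follows, with matches to TATAAA and CCAAT on either strand in capitals. Longer GENCODE transcripts of Aspa start further upstream, and for those the window is intronic.
Aspa: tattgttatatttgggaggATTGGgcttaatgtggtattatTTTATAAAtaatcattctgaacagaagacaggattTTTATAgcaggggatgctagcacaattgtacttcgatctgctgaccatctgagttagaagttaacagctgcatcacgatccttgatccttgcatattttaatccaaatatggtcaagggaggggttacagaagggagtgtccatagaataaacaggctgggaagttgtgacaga

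The window held 3 matches to the TATA box letters TATAAA, which start 209, 207 and 174 bases before the start site, the first pair overlapping on opposite strands. At least 1 match occurred in 12.4% of the 32851 mouse promoter windows of this length. CCAAT matched once in Aspa and once in Folh1, and in 33.8% of all windows. GCGTG, the core of the response element bound by the aryl hydrocarbon receptor, had no match on either strand in the windows of Aspa, Folh1 or Slc13a3, against 28.2% of all windows with one. The SOX core ACAAAG likewise had no match in these 3 windows, against 16.5% of all. GGGCGG, the GC box, matched once in Folh1 and 2 times in Slc13a3 (32.7% of all windows), and CACGTG, an E-box, matched once in Slc13a3 (6.02% of all windows). These are matches of letters in a reference sequence and not measured binding sites. By GENCODE, the 79 bases of the Folh1 window and the 33 of the Slc13a3 window nearest the RefSeq start are exonic. The Folh1 matches to CCAAT and GGGCGG, 49 and 22 bases before that start, lie in this exonic stretch.

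Aspa, the gene for the breakdown step, was the member that moved most. It was listed at 13.0, 12.8 and 14.4 FPKM in AHR CKO cuprizone, against 41.4, 34.8 and 28.3 FPKM in AHR CKO control. The groups did not overlap, and the 3 cuprizone libraries lay within a narrow range. Aspa fell with cuprizone in AHR CKO tissue to 38.4% of the control mean, 13.4 ± 0.904 against 34.9 ± 6.56 FPKM (mean ± SD, n = 3 each). On the log2(FPKM + 1) scale this was a change of -1.30 with a 95% interval of -1.70 to -0.905 (limma over all 13759 tested genes, Benjamini-Hochberg adjusted p = 0.000593). Of the 4 cycle genes 0 rose, 1 fell and 3 did not pass in this comparison, where 7.22% of all tested genes rose and 2.98% fell. The members' median log2 change was -0.23 and that of all genes -0.01. The Aspa call held without any 1 of the 12 libraries (largest adjusted p = 0.0041).

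In WT tissue Aspa was listed at 4.65, 6.58 and 5.99 FPKM with cuprizone and at 64.0, 73.0 and 43.9 FPKM in controls. Every cuprizone library lay below every control library, and the cuprizone mean was 9.52% of the control mean (log2 change -3.165, a description with no test). In this comparison 9.08% of all tested genes rose and 7.81% fell. WT control replicate 3 had the lowest Aspa of its group, and it also had the lowest summed mature oligodendrocyte markers (10370 FPKM, against 15100 and 18850 in the other control libraries) and the highest summed striatal neuron markers (1948 FPKM, with a group median of 728). Its part in the Aspa level was not tested.

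Without cuprizone, Aspa and Folh1 were lower in AHR CKO than in WT tissue. The AHR CKO control values of Aspa, 28.3 to 41.4 FPKM, all lay below the WT control values of 43.9 to 73.0, although the nearest libraries of the groups were close to each other. The AHR CKO mean was 57.8% of the WT mean (log2 change -0.76, 95% interval -1.16 to -0.36, limma adjusted p = 0.0384). These WT control libraries belong to the comparison in which the fall of Aspa was known. This p is therefore not independent of the choice. Of the 4 cycle genes 0 were higher and 2, Aspa and Folh1, were lower, where 1.42% of all tested genes were higher and 4.76% lower. The members' median log2 change was -0.37, against -0.03 for all genes. Leaving out any 1 of 6 libraries ended the Aspa call: replicate 1 or 2 of WT control, replicate 2 or 3 of AHR CKO control, replicate 2 of AHR CKO cuprizone or replicate 3 of WT cuprizone (adjusted p up to 0.153). It was also lost when only these 2 groups were fitted (adjusted p = 0.0652) and after a transcript length and GC trend was removed (adjusted p = 0.155). Of the 12 mature oligodendrocyte markers 1, Ermn, was called lower in AHR CKO control than in WT control. At an unadjusted p under 0.05, for which no share of all genes is given, 9 were lower. Their median log2 change was -0.52, against -0.03 for all genes. Their summed FPKM was 9978 to 10680 in AHR CKO control and 10370 to 18850 in WT control. Markers of tissue next to the corpus callosum moved with genotype too. The 5 choroid plexus markers summed to 414 to 3574 FPKM in AHR CKO control and 42.9 to 154 in WT control. The 7 fibroblast and meningeal markers summed to 794 to 845 FPKM in AHR CKO control and 562 to 816 in WT control. Most of this second sum was Ptgds, at 726 to 793 FPKM in AHR CKO control and 543 to 796 in WT control. Of the choroid plexus and fibroblast markers limma called 0 and 2 higher, with 4 and 5 at an unadjusted p under 0.05. The 2 called were Col1a1 (mean 2.825 against 1.099 FPKM) and Col1a2 (3.537 against 1.433). The part of these markers in the result was not tested.

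With cuprizone the direction was the opposite. Aspa stood at 12.8 to 14.4 FPKM in AHR CKO cuprizone, against 4.65 to 6.58 FPKM in WT cuprizone, a 2.33-fold higher mean. The groups did not overlap. Striatal neuron markers, 4 in the table, summed to 652 to 1297 FPKM in AHR CKO cuprizone and 326 to 656 in WT cuprizone (0 called, 2 higher at an unadjusted p under 0.05), and choroid plexus markers to 1007 to 3730 and fibroblast markers to 354 to 857 in AHR CKO cuprizone, against 57.1 to 2981 and 160 to 251 in WT cuprizone. Most of the fibroblast sum was again Ptgds, at 327 to 796 FPKM in AHR CKO cuprizone and 145 to 199 in WT cuprizone. Ptgds fell with cuprizone in WT (log2 change -1.925, limma adjusted p = 0.00024), as did all 12 mature oligodendrocyte markers. Of the other fibroblast markers Col1a2 rose there and 5 did not pass, where 9.08% of all tested genes rose and 7.81% fell. The fibroblast sums, here and in controls, are therefore not read as a measure of fibroblasts alone. The part of the striatal, choroid plexus and fibroblast markers was not tested. The log2 change was 1.10 (95% interval 0.70 to 1.501, limma adjusted p = 0.00565), and it passed without any 1 of the libraries (largest adjusted p = 0.0237). The WT cuprizone libraries are those whose low Aspa was known when the genes were chosen, so this p is not independent of the choice. Of the 4 cycle genes 1 was higher, 0 were lower and 3 did not pass, where 9.14% of all tested genes were higher and 10.8% lower. Rescaling each library to a common total moved the median of all genes from 0.002 to -0.12 in this comparison, and the log2 change of Aspa was then 1.04.

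The log2 change of Aspa with cuprizone was -1.30 in AHR CKO and -3.165 in WT. The interaction, the log2 change in AHR CKO minus that in WT, was 1.86 (95% interval 1.30 to 2.43, limma adjusted p = 0.0398). In all, 5 genes passed this test, 0.0145% of the tested genes higher and 0.0218% lower, and Aspa and the oligodendrocyte membrane protein gene Opalin were the 2 higher ones. The 12 mature oligodendrocyte markers ran from 0.484 to 2.008 in the interaction, with a median of 0.96 against 0.03 over all genes. The direction was therefore not particular to Aspa and Opalin. Of the 12 markers 11 were higher at an unadjusted p under 0.05, a threshold for which no share of all genes is given. The interaction contains the WT change of Aspa that was known when the genes were chosen, so its p is a description of these libraries and not independent evidence. Its size stayed between 1.71 and 2.07 when any 1 library was left out, but the adjusted p passed only without WT cuprizone replicate 2 or WT control replicate 3, and was 0.0517 to 0.152 without any 1 of the other 10.

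**Figure D1:**
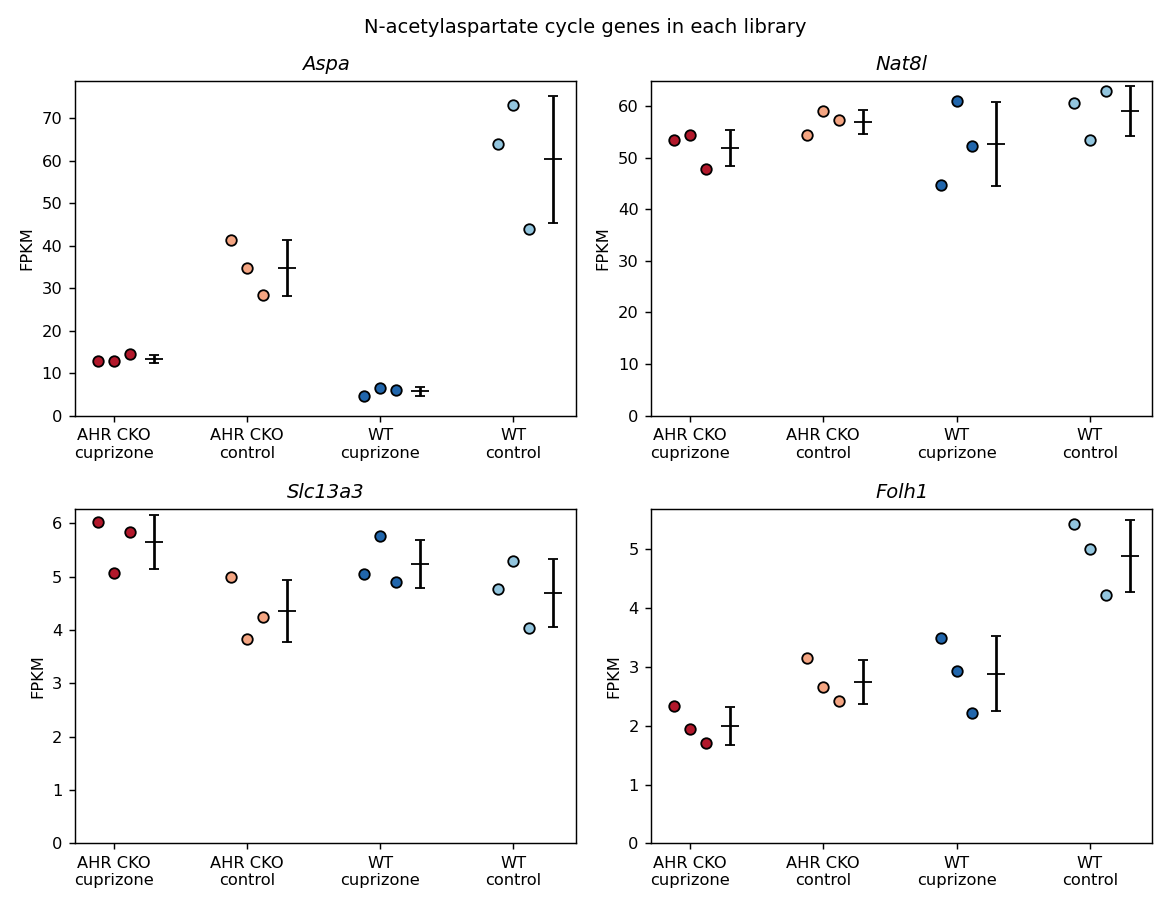
FPKM of the 4 N-acetylaspartate cycle genes in each library (points), with group mean and SD (bars, n = 3), on axes that start at 0. Aspa lies at 12.8 to 14.4 FPKM in AHR CKO cuprizone and 4.65 to 6.58 in WT cuprizone, below both control groups, while the groups of Nat8l lie close together.

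Aspa was then set beside 12 mature oligodendrocyte markers, since both mark the same cell. With cuprizone in AHR CKO tissue 0 of the 12 markers rose and 11 fell, where 7.22% of all tested genes rose and 2.98% fell. The median log2 change of the markers was -1.15. The change of Aspa, -1.30, lay within their range of -2.43 for Mal, a proteolipid of myelin, to -0.59 for Cnp, a myelin-associated enzyme. In WT the markers ran from -3.58 (Mal) to -1.32 (Cnp), and Aspa at -3.165 lay below 10 of the 12. With cuprizone, AHR CKO against WT, 2 markers were higher (Opalin and Mag, a myelin adhesion molecule), 0 were lower and 10 did not pass. Of all tested genes 9.14% were higher and 10.8% lower, and 2 of 12 is too small a count to set apart from these shares. The change of Aspa, 1.10, lay above 11 of the 12, Opalin excepted. The summed marker FPKM was 4250 to 5294 in AHR CKO cuprizone, against 3206 to 3882 in WT cuprizone.

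The level of Aspa relative to these markers, its log2(FPKM + 1) minus their mean, overlapped between the AHR CKO groups: -2.979 ± 0.105 with cuprizone and -2.985 ± 0.178 in controls (SD, n = 3, difference 0.006, exact permutation p = 1.0). That difference depended on the summary of the list: it was -0.035 with a pseudocount of 0.1 and 0.32 against the list median. In WT it was -3.63 ± 0.229 with cuprizone and -2.77 ± 0.08 in controls, groups that did not overlap (difference -0.85, or -0.40 against the list median, not tested). Between the genotypes with cuprizone the AHR CKO libraries lay at -3.08 to -2.87 and the WT libraries at -3.82 to -3.37 with no overlap. The difference was 0.65, or 0.476 against the list median. The exact two-sided permutation test gave p = 0.1, the smallest that 3 against 3 allows, and 0.3 after Benjamini-Hochberg adjustment over the 12 such comparisons made. In controls the difference was -0.21 (exact permutation p = 0.2). The tests between genotypes use WT libraries whose Aspa was known when the genes were chosen. They are not independent of that choice.

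**Figure D2:**
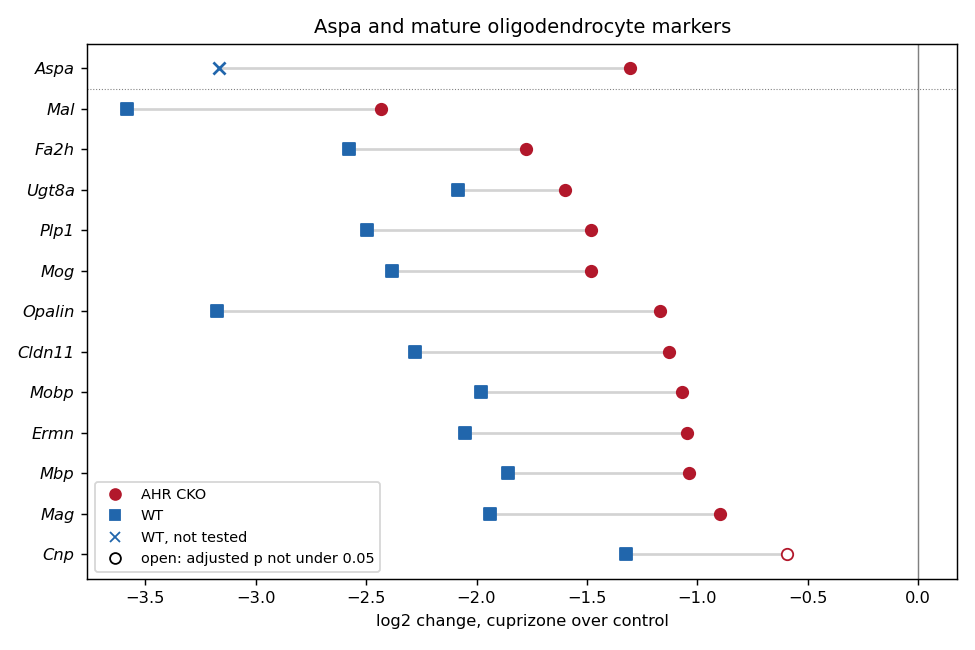
Log2 change of cuprizone over control for Aspa and 12 mature oligodendrocyte markers in AHR CKO (circles) and WT (squares, cross for Aspa, which was not tested there). In WT, Aspa at -3.165 sits with Opalin and Mal at the low end, and in AHR CKO, at -1.30, it sits among the other markers.

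Nat8l, the gene for synthesis, passed no test. It was listed at 53.4, 54.3 and 47.8 FPKM in AHR CKO cuprizone, against 54.4, 59.0 and 57.3 FPKM in AHR CKO control. The WT cuprizone libraries had 44.7, 61.0 and 52.2 FPKM, against 60.6, 53.5 and 62.9 FPKM in WT control. The AHR CKO groups were separated by a small gap, with cuprizone lower, and the WT groups overlapped. With cuprizone in AHR CKO the log2 change was -0.13 (95% interval -0.37 to 0.105, limma adjusted p = 0.503). AHR CKO against WT gave -0.05 in controls (interval -0.29 to 0.19, adjusted p = 0.81) and -0.01 with cuprizone (interval -0.25 to 0.23, adjusted p = 0.943), and the sign of both turned under at least 1 of the alternatives tried. The interval of the interaction was -0.30 to 0.37.

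Neuron markers moved little with cuprizone, as did Nat8l. Of 10, limma called 0 with cuprizone in AHR CKO (median log2 change -0.16) and 0 in WT (median -0.18), with 1 and 2 lower at an unadjusted p under 0.05. Relative to these markers Nat8l differed by 0.04 between AHR CKO cuprizone and AHR CKO control (exact permutation p = 0.4). Between AHR CKO control, at -1.69 ± 0.053, and WT control, at -1.535 ± 0.014, the libraries did not overlap (SD, n = 3). The difference was small, -0.16, or -0.275 against the list median (exact permutation p = 0.1, adjusted over the 12 comparisons 0.3). Most of it lay in the list, whose mean changed by 0.108, while Nat8l itself changed by -0.05.

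The ratio of the breakdown gene to the synthesis gene was compared between groups only, since the longest transcripts differ in GC content (38.5% for Aspa, 59.1% for Nat8l) and FPKM does not remove such trends. The ratio of Aspa to Nat8l FPKM was 0.26 ± 0.0363 in AHR CKO cuprizone and 0.615 ± 0.136 in AHR CKO control (SD, n = 3 each). It was 0.109 ± 0.00537 in WT cuprizone and 1.04 ± 0.334 in WT control. The lowest to highest ratios were 0.235 to 0.301 in AHR CKO cuprizone and 0.104 to 0.115 in WT cuprizone, with no overlap. The ratio is a description with no test.

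Slc13a3, the carrier, was low in every group. It was listed at 6.02, 5.08 and 5.84 FPKM in AHR CKO cuprizone, against 4.99, 3.83 and 4.24 FPKM in AHR CKO control. These groups just failed to overlap, with cuprizone higher. The log2 change was 0.31 (95% interval 0.05 to 0.58), which did not pass over all genes (limma adjusted p = 0.128). The WT cuprizone libraries had 5.05, 5.76 and 4.90 FPKM, against 4.76, 5.30 and 4.03 FPKM in WT control, groups that overlapped. AHR CKO against WT gave -0.09 in controls (interval -0.35 to 0.17) and 0.09 with cuprizone (interval -0.17 to 0.35, turning to -0.02 when libraries were rescaled to a common total), and neither passed (adjusted p = 0.665 and 0.602). Astrocytes are one of the cell types in which the carrier is known. Of 10 astrocyte markers 4 rose and 0 fell with cuprizone in AHR CKO, where 7.22% of all tested genes rose and 2.98% fell. At an unadjusted p under 0.05, 4 of the 10 were higher and 1 was lower. Relative to the mean of the list the log2 difference of Slc13a3 with cuprizone in AHR CKO was -0.17 (exact permutation p = 0.3). Relative to the list median it was 0.245.

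Folh1, the gene for release from the dipeptide, was highest in WT controls. It was listed at 2.34, 1.94 and 1.70 FPKM in AHR CKO cuprizone, against 3.16, 2.66 and 2.42 FPKM in AHR CKO control. The WT cuprizone libraries had 3.50, 2.93 and 2.22 FPKM, against 5.43, 4.99 and 4.22 FPKM in WT control. In each genotype every cuprizone library lay below every control library, by a narrow margin in AHR CKO. With cuprizone in AHR CKO the log2 change of -0.32 did not pass over all genes (95% interval -0.64 to -0.003, limma adjusted p = 0.203), and in WT it was -0.61, a description with no test. In controls Folh1 was lower in AHR CKO, 2.75 ± 0.376 against 4.88 ± 0.612 FPKM (SD, n = 3 each, log2 change -0.65, 95% interval -0.97 to -0.33, adjusted p = 0.0349). Leaving out replicate 1 or 2 of WT control, replicate 2 or 3 of AHR CKO control, or replicate 2 of AHR CKO cuprizone ended that call (adjusted p up to 0.136). It was also lost when only these 2 groups were fitted (adjusted p = 0.0508) and after a length and GC trend was removed (adjusted p = 0.123). With cuprizone AHR CKO against WT gave -0.37 (interval -0.69 to -0.05, adjusted p = 0.0933) with overlapping libraries.

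Folh1 has been described in astrocytes. The 10 astrocyte markers averaged a log2 change of 0.48 with cuprizone in AHR CKO, with a median of 0.17 and Gfap highest at 2.59. Relative to the mean of these markers Folh1 was at -5.41 ± 0.319 in AHR CKO cuprizone and -4.61 ± 0.072 in AHR CKO control. The difference was -0.81 with no overlap (SD, n = 3, exact permutation p = 0.1, adjusted 0.3). In WT the corresponding difference was -1.16, not tested. Against the list median these differences were smaller, -0.39 in AHR CKO and -0.59 in WT. Between controls it was -0.535 for AHR CKO against WT, again with no overlap (exact permutation p = 0.1, adjusted 0.3).

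**Figure D3:**
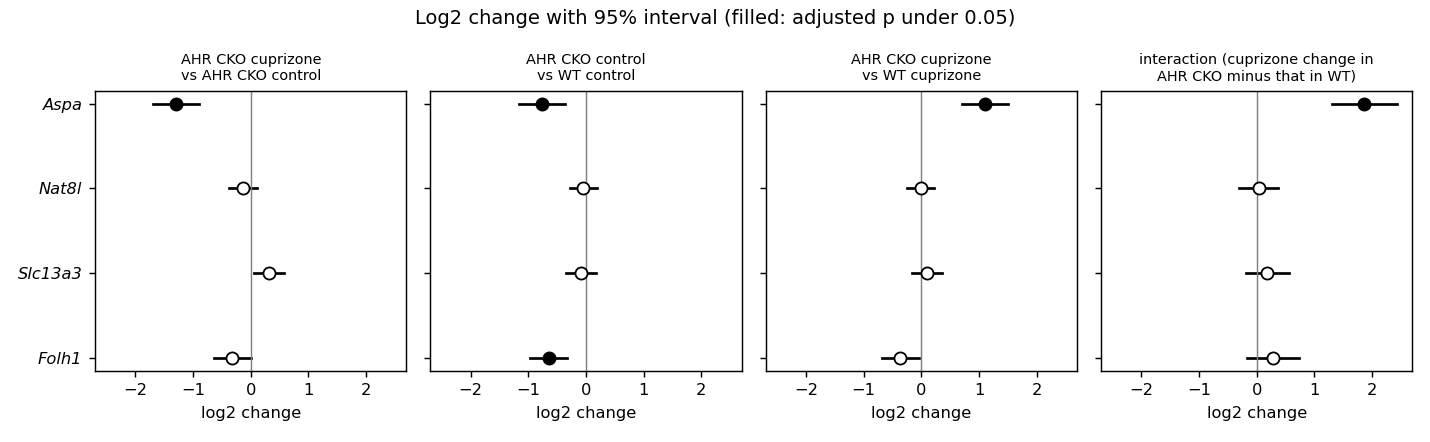
Log2 change of each cycle gene with its 95% interval in the 3 tested comparisons and the interaction (filled points: limma adjusted p under 0.05). Aspa is filled in all 4 panels, at -1.30, -0.76, 1.10 and 1.86, Folh1 in the comparison of controls alone, at -0.65, and Nat8l and Slc13a3 in none.

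**Figure D4:**
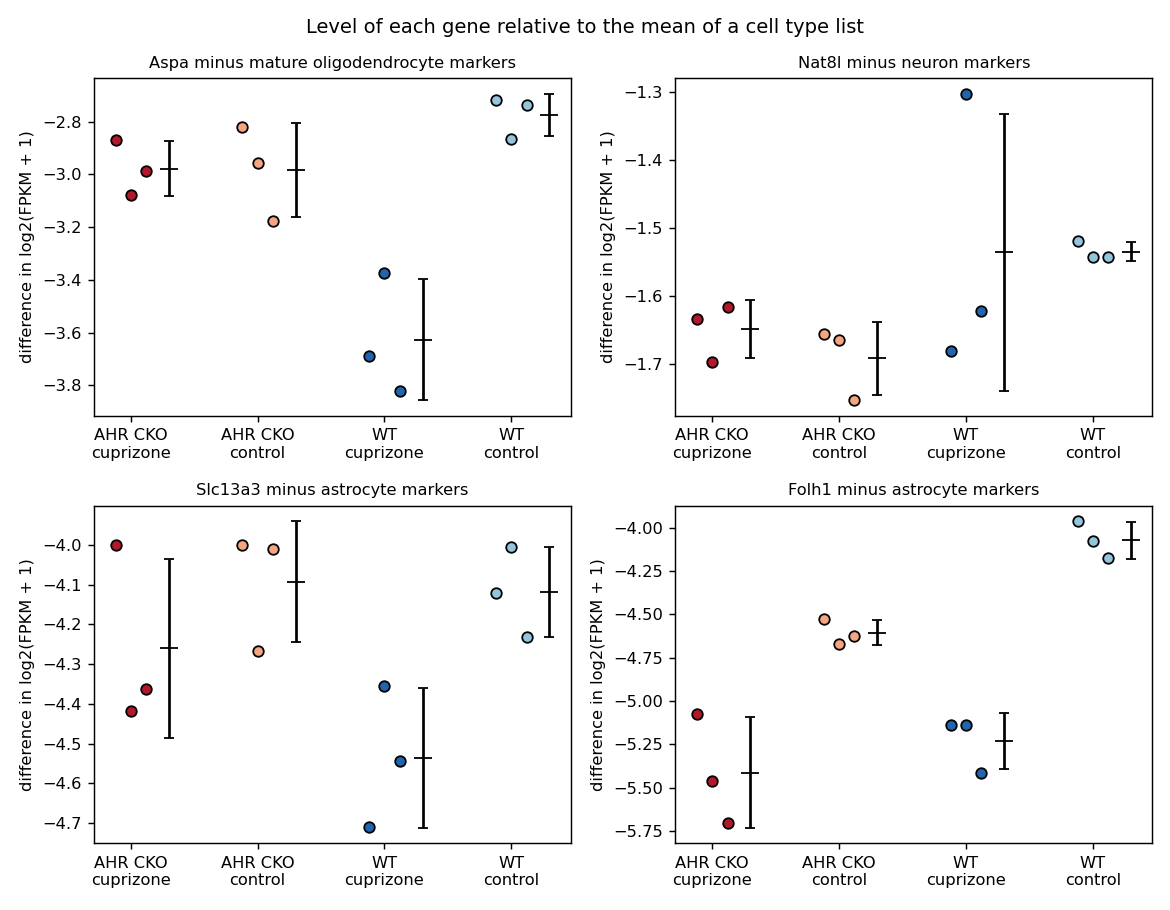
Log2(FPKM + 1) of each cycle gene minus the mean of a cell type list in each library (points), with group mean and SD (n = 3). The axes do not start at 0, and the Aspa panel shows WT cuprizone, at -3.82 to -3.37, below the other 3 groups.

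By group mean, the order of Aspa from low to high was WT cuprizone, AHR CKO cuprizone, AHR CKO control and WT control, and no neighbouring groups overlapped. For Folh1 it was AHR CKO cuprizone, AHR CKO control, WT cuprizone and WT control, and the middle pair overlapped. For Nat8l it was AHR CKO cuprizone, WT cuprizone, AHR CKO control and WT control, and for Slc13a3 AHR CKO control, WT control, WT cuprizone and AHR CKO cuprizone. In both of these all neighbouring groups overlapped.

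Genes with the most similar pattern were found by the root mean square difference between log2(FPKM + 1) profiles over the 12 libraries, each gene centred on its own mean. The 5 closest to Aspa among 12925 named genes were Prr18 (0.25), Itgb4 (0.29), Carns1 (0.33), Ninj2 (0.34) and Fa2h (0.34), against a median of 1.235 over all genes compared. Fa2h hydroxylates the fatty acids of myelin lipids, Itgb4 is the beta 4 integrin chain and Carns1 makes the dipeptide carnosine. Prr18 averaged 28.9 FPKM in AHR CKO cuprizone, 65.7 in AHR CKO control, 15.95 in WT cuprizone and 97.1 in WT control, the same order of groups as Aspa. The 5 closest to Folh1 were Atp11a, Clcn5, Kif1b, Phlpp1 and Tmc7, at 0.13 to 0.16 against a median of 0.425. Nat8l and Slc13a3 varied so little over the libraries (0.14 and 0.16) that the genes closest to them, led by Fam134a and Rfxank, are named here without values.

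Around the cycle, 20 tested genes of aspartate supply, N-acetylaspartylglutamate, aminoacylases and acetate use were counted. With cuprizone in AHR CKO 0 rose, 4 fell and 16 did not pass, where 7.22% of all tested genes rose and 2.98% fell. In WT 2 rose, 6 fell and 12 did not pass, where 9.08% of all rose and 7.81% fell. In controls, AHR CKO against WT, 1 was higher, 2 were lower and 17 did not pass, where 1.42% of all were higher and 4.76% lower. With cuprizone, AHR CKO against WT, 1 was higher, 0 were lower and 19 did not pass, where 9.14% of all were higher and 10.8% lower. The counts of higher genes, at most 2 of 20, are too small to set apart from these shares. In the interaction limma called 0 of the 20, with 1, Grm2, at an unadjusted p under 0.05. Their median log2 change with cuprizone was -0.145 in AHR CKO (-0.01 over all genes) and -0.22 in WT (-0.04 over all genes).

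Among genes of acetate use and fatty acid synthesis, Acss2, which turns free acetate into acetyl-CoA in the cytosol and nucleus, fell in both genotypes. Its values were 16.2, 13.5 and 14.4 FPKM in AHR CKO cuprizone, against 23.9, 25.1 and 26.9 in AHR CKO control, with no overlap (log2 change -0.75, limma adjusted p = 0.00253). In WT it was listed at 12.1, 16.6 and 14.9 FPKM with cuprizone and at 27.8, 31.3 and 23.1 in controls (log2 change -0.87, adjusted p = 0.000511). Acss1, the mitochondrial enzyme, did not pass in either genotype. Fasn, fatty acid synthase, fell in both as well, to 25.4 ± 1.71 against 33.5 ± 1.35 FPKM in AHR CKO (adjusted p = 0.00697, but 0.0967 after a length and GC trend was removed) and to 27.5 ± 1.19 against 36.4 ± 1.75 in WT (SD, n = 3 each, adjusted p = 0.00389). Acaca, which makes the malonyl-CoA used by Fasn, fell in WT (adjusted p = 0.0301) and was lower in AHR CKO than WT controls (adjusted p = 0.046), and each call was lost under several of the alternatives tried.

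Of the genes of N-acetylaspartylglutamate, the synthetase genes Rimkla and Rimklb and the vesicular carrier gene Slc17a5 did not pass in any comparison. Grm3, the receptor at which the dipeptide acts, fell with cuprizone to 12.04 ± 1.97 against 20.5 ± 3.58 FPKM in AHR CKO (log2 change -0.72, limma adjusted p = 0.01196) and to 17.05 ± 2.97 against 32.6 ± 2.45 in WT (SD, n = 3 each, log2 change -0.91, adjusted p = 0.00155). The AHR CKO call needed both AHR CKO control replicate 1 and replicate 2 (without either, largest adjusted p = 0.0628). In controls Grm3 was also lower in AHR CKO (adjusted p = 0.038, up to 0.149 with 1 library left out). Grm2, a related receptor, was higher in AHR CKO than WT controls (log2 change 0.75, limma adjusted p = 0.0464, up to 0.173 with 1 library left out). It averaged 10.8 ± 2.31 FPKM in AHR CKO cuprizone and 14.03 ± 3.80 in AHR CKO control (SD, n = 3, adjusted p = 0.329). It rose in WT with cuprizone to 12.66 ± 1.305 against 7.815 ± 1.31 FPKM (adjusted p = 0.0409, up to 0.138 with 1 library left out), and the difference between these changes did not pass (interaction -0.97, adjusted p = 0.292).

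Of the genes that supply aspartate, Slc25a13, a mitochondrial aspartate-glutamate carrier, fell to 1.375 ± 0.259 against 2.46 ± 0.525 FPKM in AHR CKO (limma adjusted p = 0.0463, up to 0.193 with 1 library left out) and to 1.35 ± 0.367 against 3.52 ± 0.365 in WT (SD, n = 3 each, adjusted p = 0.000988). Its neuronal relative Slc25a12 and the transaminase genes Got1 and Got2 did not pass with cuprizone in either genotype. Mdh2, mitochondrial malate dehydrogenase, was higher in AHR CKO cuprizone than in WT cuprizone, 294 ± 48.7 against 205 ± 12.5 FPKM (adjusted p = 0.0164, 0.1095 after a length and GC trend was removed). Acy1, an aminoacylase for other N-acetylated amino acids, was 7.83 ± 2.38 FPKM in AHR CKO cuprizone and 10.85 ± 1.44 in AHR CKO control (adjusted p = 0.207). It fell in WT to 4.94 ± 0.319 against 9.80 ± 2.73 FPKM (adjusted p = 0.016, up to 0.0638 with 1 library left out). Acy3, the closest relative of Aspa among the genes listed, did not pass in any comparison. Nat8, a relative of Nat8l, rose in WT to 2.01 ± 0.474 against 0.846 ± 0.315 FPKM (SD, n = 3, adjusted p = 0.0133, up to 0.0627 with 1 library left out), and was 1.82 ± 0.455 against 0.995 ± 0.0755 in AHR CKO (adjusted p = 0.0989).

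**Figure D5:**
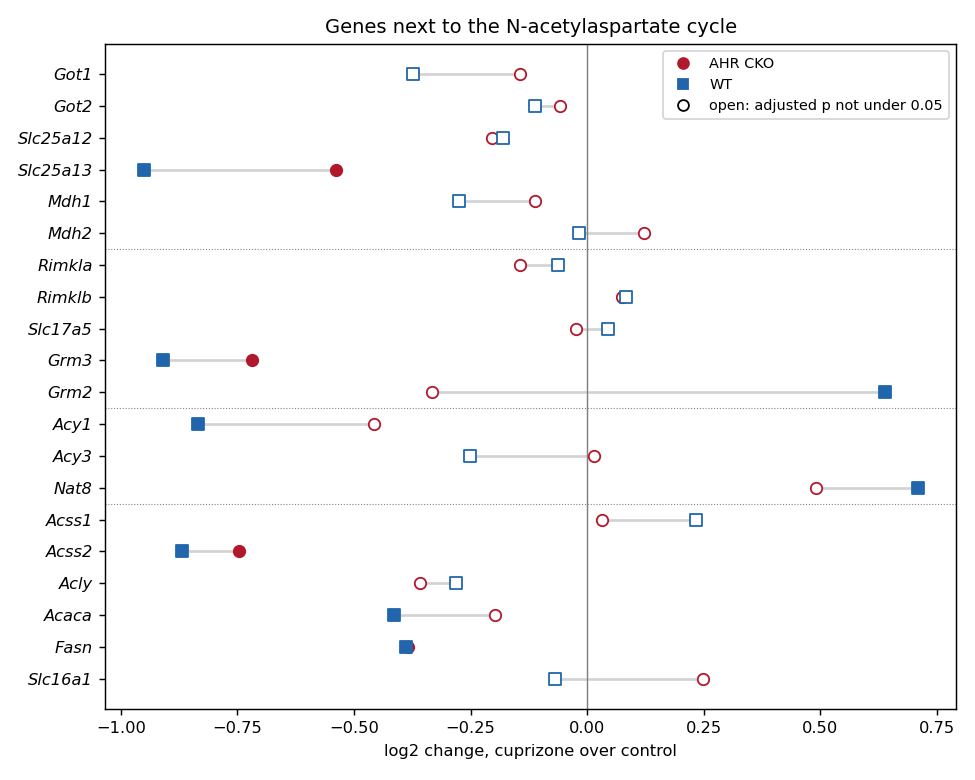
Log2 change of cuprizone over control for 20 genes around the cycle in AHR CKO (circles) and WT (squares), filled where the limma adjusted p is under 0.05. Slc25a13, Grm3, Acss2 and Fasn are filled on the left in both genotypes, while Nat8 and Grm2 are filled on the right in WT.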

How the data were processed

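Per the labels, 12 corpus callosum samples carry a genotype, a treatment and a replicate number, which gave 4 groups of 3. The authors deposited 1 table of FPKM for 15584 genes. The submitters' processing notes name GRCm38 and mm10 as the build. Which aligner, quantifier, strand setting and filters were used is not stated there. FPKM does not remove length or GC trends that differ between libraries.

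A gene was tested if 3 or more libraries reached 1 FPKM (13759 genes), as log2(FPKM + 1), which understates changes of low genes. With limma 3.58.1 (R 4.3.3; linear model, contrasts, empirical Bayes with a trended prior) the model fitted the 4 groups to all 12 libraries. P-values are two-sided, Benjamini-Hochberg adjusted over all tested genes within a comparison, and passed under 0.05. Shares of all genes are given for the adjusted p only, so counts at an unadjusted p have no such share beside them. The fit was tested on simulated data. Levels relative to a marker list used an exact permutation test (SciPy 1.17.1). Depth came from the median of FPKM times kb between 0.05 and 0.12, in 9 to 31 genes a library with 1 GENCODE M21 transcript over 1500 nt, taking that as 1 fragment. The range was set after looking at the values and limits depth to between 8330000 and 20000000, and fragments per gene use its longest transcript, so both are rough. No counts were rebuilt.

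The members and the 14 lists (93 symbols, 90 tested) were chosen with earlier results of these data known. Named genes are the members, pathway genes past the threshold in any comparison (others by count or as not passing), marker lists by counts, and the 5 closest profiles of each member. Opalin, Mag, Mal, Cnp, Ptgds, Col1a1, Col1a2 and Gfap were named after their values were seen. Slc13a3 overlaps an antisense gene with 0 shared exon bases. Alternatives were 11 settings and leaving out each library. Promoters are from RefSeq (GRCm38.p6), which held 3 of the 4 members.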

Additional observations from a re-analysis of the deposited data

Results flagged for a closer look

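The interaction test passed for Aspa, with a log2 difference of 1.86 (limma adjusted p = 0.0398): it fell by 1.30 in AHR CKO, and the log2 change was -3.165 in WT. This test reuses the WT values known when the genes were chosen and is not independent of that choice. Its call was lost without any 1 of 10 libraries (adjusted p up to 0.152), all but WT cuprizone replicate 2 and WT control replicate 3. Opalin, a membrane protein gene of oligodendrocytes, had an interaction of 2.01 (adjusted p = 0.0465), with 64.2, 46.6 and 51.9 FPKM in AHR CKO cuprizone, 123, 123 and 120 FPKM in AHR CKO control, 11.8, 13.1 and 16.9 FPKM in WT cuprizone, and 147, 175 and 90.6 FPKM in WT control. The Opalin call was lost without any 1 of the same 10 libraries, with adjusted p up to 0.182. Groups of 3 were too small to look for single libraries far from the others.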

How the results depend on the processing

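Of 1144 alternative values of 61 results, 957 stayed the same, 119 lost a call, 5 gained one, 22 changed sign and 41 moved. For tested changes the same meant the same direction and side of the threshold. For levels relative to a list it meant the same direction alone. For the untested WT changes of the members and the gene counts it meant within a set margin of the main value. The causes were not tested. The WT cuprizone libraries, whose low Aspa was known when the genes were chosen, were reused in the alternatives. A call against them that holds is therefore not independent of that choice. Aspa kept its calls for cuprizone in AHR CKO (log2 -1.44 to -1.17) and for AHR CKO against WT with cuprizone (0.98 to 1.25) under every alternative run. Between controls its call was lost with a length and GC trend removed (-0.57), with only the 2 groups fitted (-0.759, adjusted p = 0.0652) and with the replicate block (-0.759, adjusted p = 0.0729), and leaving out 1 library gave -0.969 to -0.608. Its interaction of 1.861 missed the threshold with no filter on low values (adjusted p = 0.063), with no trend in the prior variance (0.0502) and with the replicate block (0.0911), and leaving out 1 library gave 1.71 to 2.07.

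Folh1 between controls missed with the length and GC trend removed (-0.529) and with only the 2 groups fitted (-0.65), and leaving out 1 library gave -0.734 to -0.584. AHR CKO against WT with cuprizone, it passed after rescaling to a common total (-0.542, adjusted p = 0.0485) and with the replicate block (-0.367, adjusted p = 0.0487). Sample quality weights called Folh1 (-0.343) and Slc13a3 (0.279) with cuprizone in AHR CKO and Folh1 in the interaction (0.539), and moved Folh1 in WT to -0.881. Signs turned for Nat8l between controls (0.025, length and GC), with cuprizone (0.095, length and GC; 0.041, weights; -0.124 to 0.097 without 1 library) and in the interaction (-0.035, common total; -0.037, quantile; -0.075 to 0.146 without 1 library), and for Slc13a3 with cuprizone between genotypes (-0.02, common total).

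Relative to its marker list, Aspa with cuprizone in AHR CKO turned to -0.035 with a pseudocount of 0.1, was 0.321 with the list median, and lay at -0.089 to 0.087 without 1 library. Nat8l lay at -0.186 to 0.003 between genotypes with cuprizone and at -0.117 to 0.072 in WT, and Slc13a3 at -0.03 to 0.114 between controls. With the list median, Slc13a3 turned to 0.245 in AHR CKO and 0.149 in WT, Folh1 shrank to -0.394 in AHR CKO and -0.592 in WT, and Aspa in WT to -0.404.

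Calls over all genes with cuprizone in AHR CKO (1403) came to 901 at a mean FPKM of at least 5, 4846 with weights and 840 to 1553 without 1 library. Between controls (851) they came to 51 with the length and GC trend removed, 4477 with weights, 51 with the replicate block, 127 with only the 2 groups, and 4 to 1428 without 1 library. Between genotypes with cuprizone (2747) they came to 985, 8036, 1806 and 1070 under those settings, and 777 to 3305 without 1 library. The interaction (5) gave 1 with no filter, 10 with length and GC, 2556 with weights, 2 with no trend, 0 with the block and 0 to 103 without 1 library. Cuprizone in WT (2324) gave 5100 with weights. Replicate numbers did not pair the samples: 3 of 18 same-number correlations of deviations were over 0.1 (-0.343 to 0.25), and 3 of 12 libraries were closest to their own number. Folh1 rests on the fewest fragments of the members (71 to 193).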

Other observations

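Naalad2, a relative of Folh1 that also cleaves N-acetylaspartylglutamate, was below 1 FPKM in every library and was not tested. It was listed at 0.537, 0.624 and 0.823 FPKM in AHR CKO cuprizone, against 0.24, 0.403 and 0.307 FPKM in AHR CKO control. The WT values were 0.752, 0.687 and 0.956 FPKM with cuprizone, against 0.446, 0.51 and 0.431 FPKM in controls. In both genotypes every cuprizone library lay above every control library, whereas those of Folh1 lay below. The AHR CKO groups of Nat8l, which passed no test, did not overlap either. The share of all genes without overlap is not given, so no weight is put on this contrast. The labels do not say how reads shared by related genes were assigned.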
